A study of Canis lupus familiaris with 15 samples.

Results

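The 63 genes described here encode parts of the mitochondrial ribosome and of the machinery that carries proteins into mitochondria. They are every gene on the array whose symbol starts with MRPL or MRPS and a digit, or with TIMM or TOMM, which makes 63 of 5246 measured genes. Of these, 32 carry MRPL and 18 MRPS symbols, 9 are TIMM and 4 are TOMM genes. The arrays compared RNA from 3 canine mammary tumour cell lines grown almost to confluence. P114 was derived from an anaplastic carcinoma, CMT-U229 from a benign mixed tumour and CMT-U335 from a primary osteosarcoma that arose in mammary tissue. Each of 15 cDNA arrays carried a pair of lines in 2 dyes, with 5 arrays for P114 against CMT-U335, 5 for P114 against CMT-U229 and 5 for CMT-U229 against CMT-U335. The lines carried no treatment or engineered change in the labels, and each stands for a single tumour of its kind, so a pair compares lines and not tumour classes.

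Mitochondria make the few core proteins encoded in their own genome on a ribosome whose protein parts are all encoded in the nucleus. Those parts are made in the cytosol and imported, as are nearly all other mitochondrial proteins. Precursors pass the outer membrane through the TOM complex. From there the TIM23 complex takes precursors with a presequence into the matrix or inner membrane, whereas small chaperones of the intermembrane space hand metabolite carriers to the TIM22 complex. Tumour cells can differ in how much of this machinery they make, as cells with different demands for respiration do.

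Every value below is a log2 ratio of the first line of a pair over the second, as a single array value or as the mean of 5 arrays with the standard error from limma. A value of -1 would be a halved signal in the first line. A gene was called when its adjusted p from limma, over all 5246 genes, lay under 0.05. All directions are likely rather than settled, because the deposited table does not state which dye is the numerator. Cy5, which the labels give as channel 1, was taken for it, and with the opposite reading every higher gene would be lower. Arrays of a pair, once turned by their dyes, correlated over genes at 0.294 to 0.415 for the same dye order and 0.228 to 0.348 for opposite orders in P114 against CMT-U335. The ranges were 0.196 to 0.323 and 0.09 to 0.222 in P114 against CMT-U229, and 0.238 to 0.497 and 0.0 to 0.341 in CMT-U229 against CMT-U335. The labels call the 5 arrays biological replicates, but the design text mentions swapped dyes and 1 or more biological replicates. Some arrays may be technical repeats, so p-values measure the spread between arrays. An alternative averages couples of arrays that look like swaps of one RNA, taken from an earlier look at these data, and its effect stands beside the calls it ends.

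Ratios show no level, so whether a marker is absent from a line cannot be read. Of 4 measured epithelial markers, 3 were higher and 1 was lower in P114 than in CMT-U335, 2 were higher in P114 than in CMT-U229 and 3 were higher in CMT-U229 than in CMT-U335. P114 had 3 of 6 mesenchymal markers lower than CMT-U335 and 3 higher than CMT-U229, and CMT-U229 had 5 lower than CMT-U335. Of the 3 higher in P114 than in CMT-U229, S100A4 kept its call under every alternative, whereas COL1A2 and DCN lost theirs with apparent swaps averaged, and DCN also with a dye term and without replicate 2, 3, 4 or 5. The lower epithelial call, TJP1, was lost without replicate 2, 3 or 5. By ratio, EPCAM, KRT8 and KRT18 ran from 2.46 to 3.55 in P114 against CMT-U335. Of 3 bone markers 2 were higher in P114 than in the osteosarcoma line, SPP1 at 4.12 ± 0.18 and SPARC at 0.56 ± 0.17, a direction that turns if Cy3 is the numerator. SPP1 kept its call under every alternative, whereas that of SPARC was lost in 9, among them a dye term, averaged swaps and leaving out replicate 2, 3, 4 or 5. SPARC was also higher in P114 than in CMT-U229, a call lost with apparent swaps averaged. The 3 endothelial and 3 muscle markers gave no call, and of 3 leukocyte markers only CD14 did, in both pairs with P114. Both CD14 calls were lost with apparent swaps averaged, and that against CMT-U335 also with scale normalization, with a dye term and without replicate 2, 3, 4 or 5. The lines therefore differed in tissue markers wherever the mitochondrial genes below differed, and the part this has in those ratios was not tested.

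In P114 against CMT-U335 the carcinoma line had less RNA for a set of mitochondrial ribosomal proteins. Of the 63 genes, 21 were called (33.3%), 16 lower (25.4%) and 5 higher (7.94%) in P114. Among all genes 22.3% were called, 14.4% lower and 7.89% higher, so the share of higher calls lay near that of the whole array and the share of lower calls above it. The median ratio was -0.17 over the 63 genes and -0.023 over all genes. Without replicate 1 the median of the 63 genes was -0.0577, so a good part of that shift rests on 1 array. In P114 against CMT-U229 only 3 of the 63 genes were called (4.76%), 2 higher (3.17%) and 1 lower (1.59%) in P114, where 7.3% of all genes were called, 3.32% higher and 3.98% lower. In CMT-U229 against CMT-U335, 16 were called (25.4%), 10 lower (15.9%) and 6 higher (9.52%), where 17.3% of all genes were called, 8.58% lower and 8.77% higher. The medians in these pairs were -0.051 and -0.026 over the 63 genes, and -0.011 and -0.005 over all genes.

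**Figure D1:**
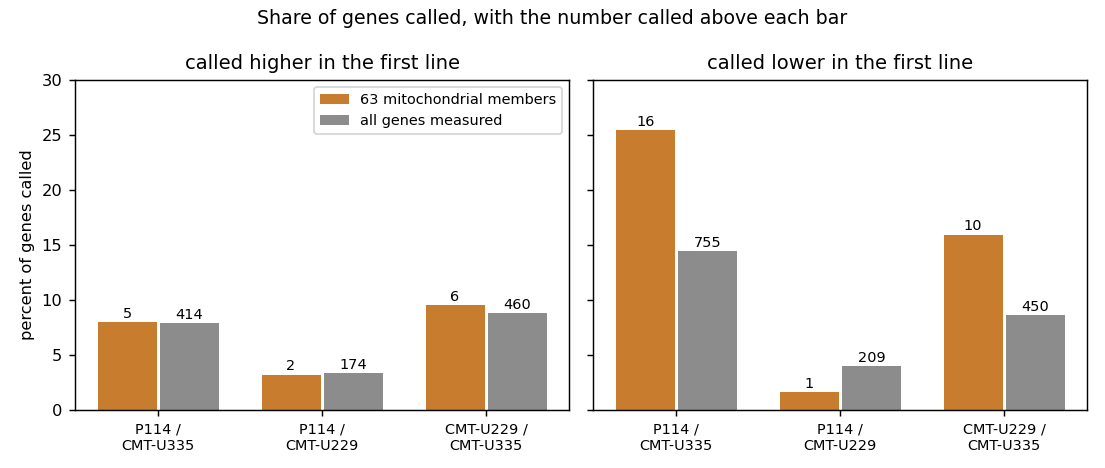
Percent of genes called at an adjusted p under 0.05 (limma) for the 63 mitochondrial ribosome and import genes (orange) and all 5246 genes (grey), with the number called above each bar; the left panel holds genes higher in the first line of a pair and the right panel genes lower in it. The orange bar stands above the grey one for lower calls in P114 against CMT-U335 (25.4% and 14.4%) and in CMT-U229 against CMT-U335 (15.9% and 8.58%).

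The large ribosomal subunit holds the centre where peptide bonds form. Over all genes, 14.4% were called lower and 7.89% higher in P114 than in CMT-U335. Of the 32 large subunit genes measured, 9 were lower and 2 higher in that pair, with a median ratio of -0.21. The lowest was MRPL33, a small protein with a bacterial counterpart, at -1.27, -0.98, -1.36, -1.22 and -1.08 on the 5 arrays. All of its arrays lay near or below a halved signal, and the mean of -1.18 ± 0.083 is a 2.27-fold lower ratio in P114 (adjusted p = 0.000138, limma). MRPL21, another protein with a bacterial counterpart, gave -1.08, -0.92, -1.13, -0.95 and -1.47, a mean of -1.11 ± 0.098 or 2.16-fold lower (adjusted p = 0.000365, limma). MRPL3, which in bacteria reaches towards the peptidyl transferase centre, stood at -0.87, -0.82, -1.15, -0.75 and -0.96 (mean -0.91 ± 0.083, adjusted p = 0.000418, limma). These 3 genes were below 0 on every array, with none of the 15 values above -0.75.

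MRPL47, which lies beside the exit of the peptide tunnel, was less even. Its arrays gave -0.93, -0.53, -1.03, -0.50 and -0.87 (mean -0.77 ± 0.10, adjusted p = 0.0019, limma). MRPL32, which in yeast and mouse must be cut by the m-AAA protease before it joins the ribosome, was at -0.99, -0.28, -0.68, -0.49 and -0.71 (mean -0.63 ± 0.11, adjusted p = 0.00574, limma). MRPL46, a protein of mitochondrial ribosomes with no bacterial counterpart, was at -0.69, -0.89, -0.75, -0.085 and -0.83, with replicate 4 close to 0 (mean -0.65 ± 0.13, adjusted p = 0.00917, limma). MRPL30 was at -0.35, -0.45, -0.63, -0.64 and -0.66 (mean -0.54 ± 0.08, adjusted p = 0.00298, limma). Each of these 4 genes kept its call without any one array and with apparent swaps averaged. MRPL35 was at -0.10, -0.60, -0.41, -0.41 and -0.74 (mean -0.45 ± 0.10, adjusted p = 0.0173, limma). MRPL42, with no bacterial counterpart, was at -0.12, -0.42, -0.60, -0.16 and -0.37 (mean -0.34 ± 0.092, adjusted p = 0.0361, limma). The call of MRPL35 was lost without replicate 2, 3 or 5, and that of MRPL42 without replicate 2, 3, 4 or 5 and in one fit over all 15 arrays (adjusted p = 0.0854, limma).

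The 2 large subunit genes higher in P114 had smaller ratios. MRPL16, whose bacterial counterpart helps to seat the transfer RNA, gave 0.18, 0.51, 0.63, 0.76 and 0.17 (mean 0.45 ± 0.11, adjusted p = 0.0225, limma). MRPL23, beside the tunnel exit, gave 0.23, 0.20, 0.42, 0.64 and 0.41 (mean 0.38 ± 0.088, adjusted p = 0.0189, limma). All 10 values were above 0, but neither call was stable: that of MRPL16 was lost without replicate 2, 3 or 4, and that of MRPL23 without replicate 3, 4 or 5 or with apparent swaps averaged.

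The small subunit reads the messenger RNA. Of 18 genes with MRPS symbols, 4 were lower and 2 higher in P114 than in CMT-U335, with a median of -0.097. Among all genes 14.4% were called lower and 7.89% higher, so neither MRPS count stood far from the whole array. MRPS31 was the lowest, at -0.63, -0.83, -1.23, -0.56 and -1.11 (mean -0.87 ± 0.12, adjusted p = 0.00194, limma). MRPS31 was below 0 on all arrays, as were the next 3 genes. MRPS35, which like MRPS31 has no bacterial counterpart, was at -0.34, -0.66, -0.87, -0.15 and -0.57 (mean -0.52 ± 0.11, adjusted p = 0.0152, limma). MRPS14 was at -0.51, -0.55, -0.57, -0.098 and -0.73 (mean -0.49 ± 0.10, adjusted p = 0.0119, limma). MRPS15 was at -0.50, -0.50, -0.60, -0.18 and -0.52 (mean -0.46 ± 0.084, adjusted p = 0.0074, limma). MRPS35, MRPS14 and MRPS15 were weakest in replicate 4, and their calls held without any one array.

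MRPS30 had the highest ratio of the 63 genes and one of the most uneven. Despite its symbol, structures of mammalian mitochondrial ribosomes place this protein in the large subunit. Its arrays gave 1.11, 0.68, 0.70, 1.89 and 2.94, all above 0 and widely spread. The mean of 1.46 ± 0.32 is a 2.76-fold higher ratio in P114 (adjusted p = 0.0154, limma). The call was lost without replicate 4 (adjusted p = 0.0543, limma) and with apparent swaps averaged (1.33, adjusted p = 0.0597, limma), whereas without any one array the mean stayed between 1.09 and 1.66. MRPS16, a small subunit protein with a bacterial counterpart, was at 0.38, 0.24, 0.55, 0.70 and 0.25 (mean 0.42 ± 0.093, adjusted p = 0.0153, limma), and its call was lost without replicate 3.

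Among the import genes, TIMM17A of the TIM23 complex and TIMM22 of the TIM22 complex went opposite ways. TIMM17A, a core subunit of TIM23 that human cells under stress degrade, was lower in P114 at -0.76, -1.10, -0.83, -0.71 and -1.25. All arrays were below 0, with a mean of -0.93 ± 0.10 (adjusted p = 0.0008, limma). TIMM22, the channel of the carrier pathway, was higher at 0.40, 0.77, 0.83, 1.09 and 0.64, with a mean of 0.75 ± 0.11 or 1.68-fold (adjusted p = 0.00255, limma). Its arrays were all above 0. TIMM8A, a small chaperone of the intermembrane space whose loss causes deafness and dystonia in humans, gave -0.37, -0.50, -0.57, -0.31 and -0.16 (mean -0.38 ± 0.084, adjusted p = 0.0155, limma). Its call was lost without replicate 2 or 3 and in one fit over all 15 arrays (adjusted p = 0.0736, limma). TOMM70, the receptor for carrier precursors, gave -0.18, -0.69, -0.54, -0.31 and -0.35 (mean -0.41 ± 0.093, adjusted p = 0.0166, limma), and its call was lost without replicate 3. The other 6 TIMM genes lay between -0.24 and 0.057, and TOMM22, TOMM6 and TOMM34 between -0.048 and 0.085, with none called. Among those uncalled were the other measured TIM23 genes, TIMM17B at -0.17 and TIMM21 at -0.24.

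**Figure D2:**
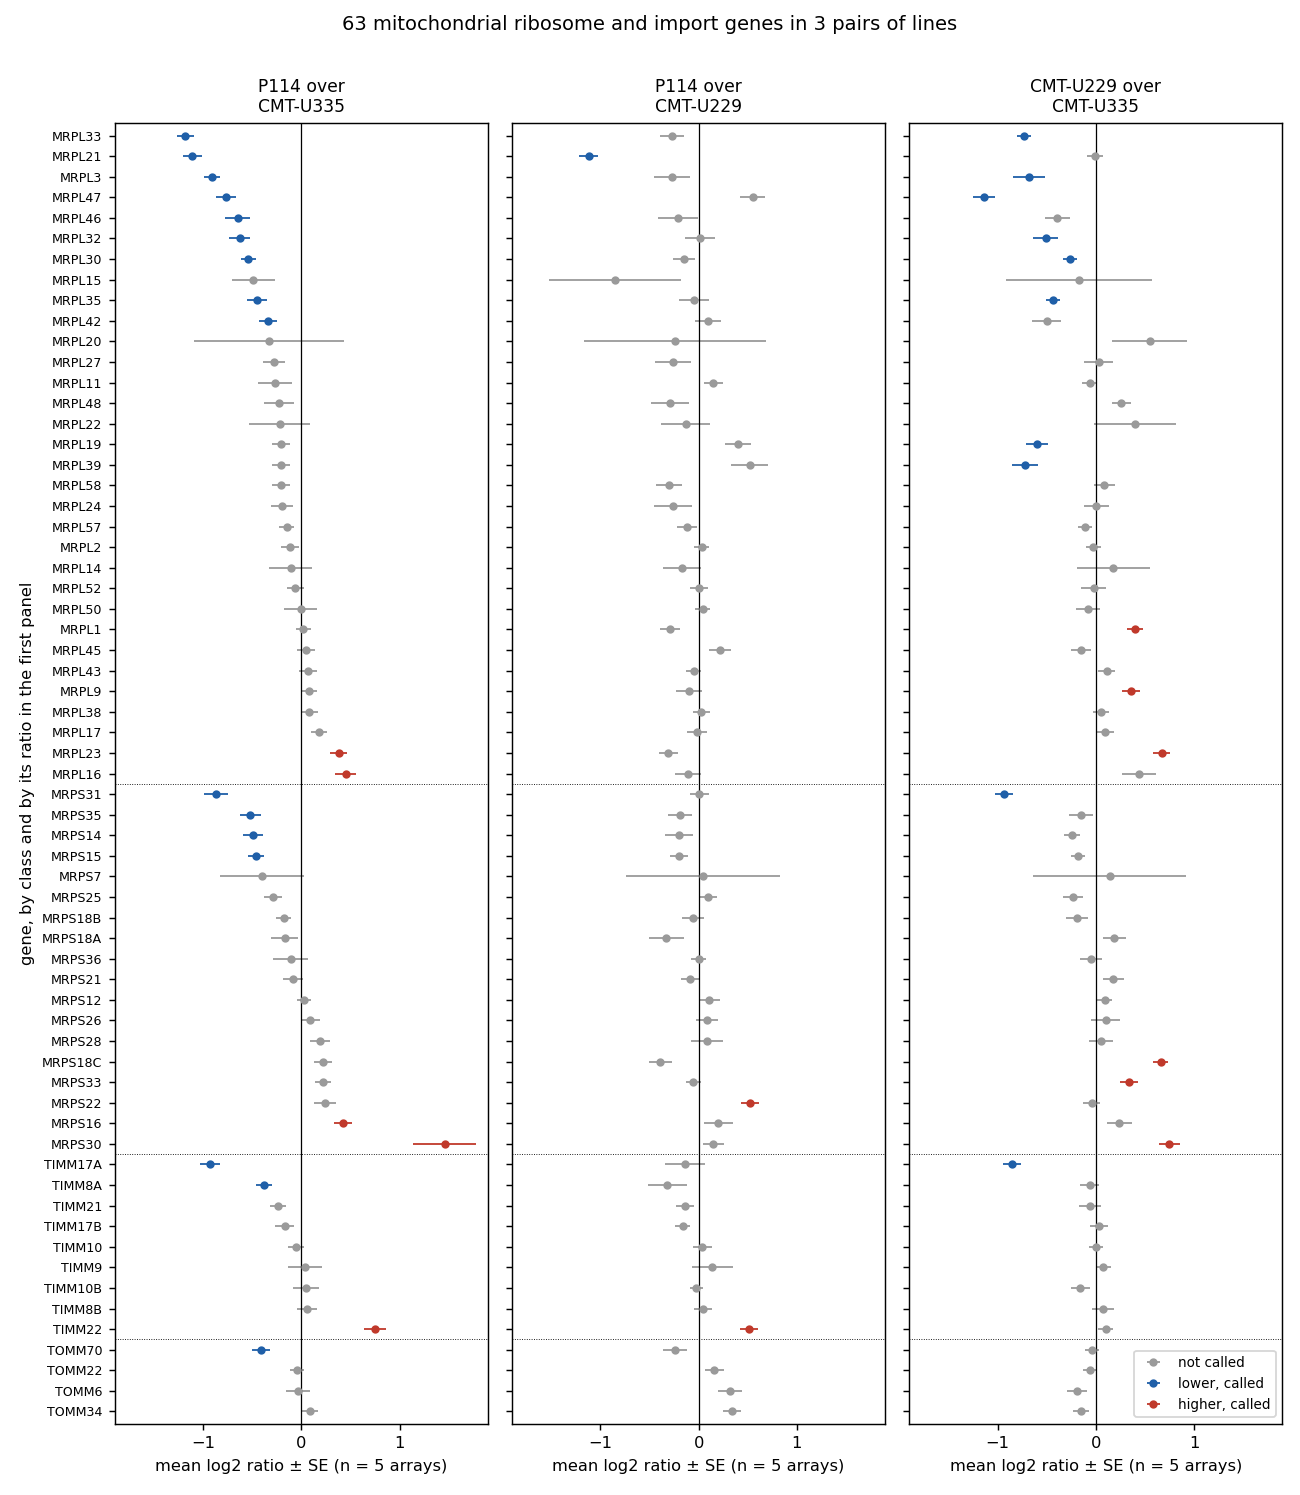
Mean log2 ratio ± SE over 5 arrays for each of the 63 genes (rows, grouped as MRPL, MRPS, TIMM and TOMM and ordered by the first panel) in the 3 pairs of lines; red marks genes called higher in the first line, blue genes called lower and grey genes not called. Blue points reach -1.18 (MRPL33) in P114 over CMT-U335 and -1.14 (MRPL47) in CMT-U229 over CMT-U335, whereas the middle panel holds 3 coloured points.

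The carcinoma line and the benign mixed tumour line differed in few of these genes. Only MRPL21 was called lower in P114 than in CMT-U229, at -0.98, -1.29, -0.78, -1.18 and -1.37. The 5 arrays lay well below 0 and gave -1.12 ± 0.10, a 2.17-fold lower ratio (adjusted p = 0.00114, limma), which held without any one array and with apparent swaps averaged. MRPS22, a small subunit protein with no bacterial counterpart, was higher at 0.50, 0.28, 0.79, 0.58 and 0.44 (mean 0.52 ± 0.091, adjusted p = 0.0178, limma). TIMM22 was higher at 0.56, 0.73, 0.65, 0.31 and 0.30 (mean 0.51 ± 0.093, adjusted p = 0.02, limma). Both genes lay above 0 on all 5 arrays, but both calls were lost with apparent swaps averaged. That of MRPS22 was also lost without replicate 1, 3 or 5, and that of TIMM22 without replicate 1, 2 or 3. MRPL47 was at 0.39, 0.20, 0.99, 0.85 and 0.34, above 0 on every array without being called (mean 0.55 ± 0.13, adjusted p = 0.0524, limma). MRPL39 was at 0.52 ± 0.19 (adjusted p = 0.174, limma). MRPL15 had the largest mean after MRPL21, -0.85 ± 0.67, but it came from 1 array at -4.29 with the others between -0.61 and 0.72. In this pair 12 of the 63 genes and 1000 of all 5246 genes had an unadjusted p under 0.05, which are nearly equal shares. Medians of the 63 genes per array ran from -0.27 in replicate 5 to 0.18 in replicate 4. Those of all genes ran from -0.069 to 0.015, but a narrower range is built in. The arrays appear centred, and a median of 63 genes varies more than one of 5246.

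In CMT-U229 against CMT-U335, 8.58% of all genes were called lower and 8.77% higher. Of the 32 large subunit genes, 8 were lower and 3 higher in CMT-U229. MRPL47 was the lowest, at -0.80, -1.20, -0.94, -1.35 and -1.41, with a mean of -1.14 ± 0.11 or 2.21-fold lower (adjusted p = 0.000767, limma). MRPL33 was at -0.60, -0.80, -0.62, -0.91 and -0.74 (mean -0.73 ± 0.074, adjusted p = 0.00102, limma). Both were lower on all 5 arrays, and both calls held without any one array and with apparent swaps averaged. MRPL39, which resembles a transfer RNA synthetase but is part of the ribosome, was at -0.28, -0.79, -0.44, -1.04 and -1.07 (mean -0.72 ± 0.13, adjusted p = 0.0107, limma). MRPL19 was at -0.53, -0.43, -0.29, -0.82 and -0.93 (mean -0.60 ± 0.11, adjusted p = 0.00964, limma). MRPL35 was at -0.29, -0.42, -0.41, -0.60 and -0.49 (mean -0.44 ± 0.071, adjusted p = 0.00611, limma). These 3 genes were below 0 on every array, yet their calls were lost with apparent swaps averaged.

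MRPL3 was less even in this pair, at -0.23, -0.42, -0.47, -1.12 and -1.18 (mean -0.68 ± 0.16, adjusted p = 0.0265, limma). MRPL32 was at 0.012, -0.45, -0.46, -0.85 and -0.81 (mean -0.51 ± 0.13, adjusted p = 0.0384, limma). MRPL30 was at -0.26, -0.23, -0.12, -0.43 and -0.25 (mean -0.26 ± 0.071, adjusted p = 0.049, limma). The calls of MRPL3 and MRPL32 were lost without replicate 2, 3, 4 or 5, that of MRPL30 without any one of the 5 arrays, and all 3 with apparent swaps averaged. In the other direction, MRPL23 gave 0.87, 0.39, 0.65, 0.66 and 0.75, all above 0 (mean 0.67 ± 0.085, 1.59-fold higher in CMT-U229, adjusted p = 0.00241, limma). MRPL1, part of a mobile stalk of the subunit, was at 0.29, 0.32, 0.28, 0.65 and 0.44 (mean 0.40 ± 0.08, adjusted p = 0.0149, limma). MRPL9, with a bacterial counterpart, was at 0.60, 0.30, 0.53, 0.13 and 0.23 (mean 0.36 ± 0.09, adjusted p = 0.0369, limma). The call of MRPL1 was lost without replicate 5 and that of MRPL9 without replicate 1, 2, 3 or 5, and both with apparent swaps averaged, while MRPL23 kept its call under every alternative.

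Of the 18 MRPS genes, 3 were higher and 1 lower in CMT-U229 than in CMT-U335. The whole array had 8.77% of genes higher and 8.58% lower in this pair. MRPS30 was at 0.77, 0.38, 0.60, 1.06 and 0.93 (mean 0.75 ± 0.11, 1.68-fold higher, adjusted p = 0.00421, limma). MRPS18C was at 0.60, 0.50, 0.66, 0.89 and 0.64 (mean 0.66 ± 0.077, 1.58-fold higher, adjusted p = 0.00163, limma). These were narrow ranges above 0, and both calls held under every alternative. MRPS33, a protein with no bacterial counterpart, was at 0.56, 0.20, 0.53, 0.35 and 0.069 (mean 0.34 ± 0.093, adjusted p = 0.0457, limma), and its call was lost without replicate 1, 2, 3 or 4 and with apparent swaps averaged. MRPS31 was lower at -1.26, -0.89, -0.80, -0.72 and -0.95 (mean -0.93 ± 0.092, 1.9-fold, adjusted p = 0.000996, limma). Of the 13 import genes 1 was called, where 17.3% of all genes were, so this count is not far from the whole array. It was TIMM17A, at -0.55, -0.88, -0.72, -1.09 and -0.98 (mean -0.85 ± 0.093, adjusted p = 0.00135, limma). Both MRPS31 and TIMM17A were below 0 on all 5 arrays. TIMM22 was at 0.10 ± 0.075 here (adjusted p = 0.464, limma).

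**Figure D3:**
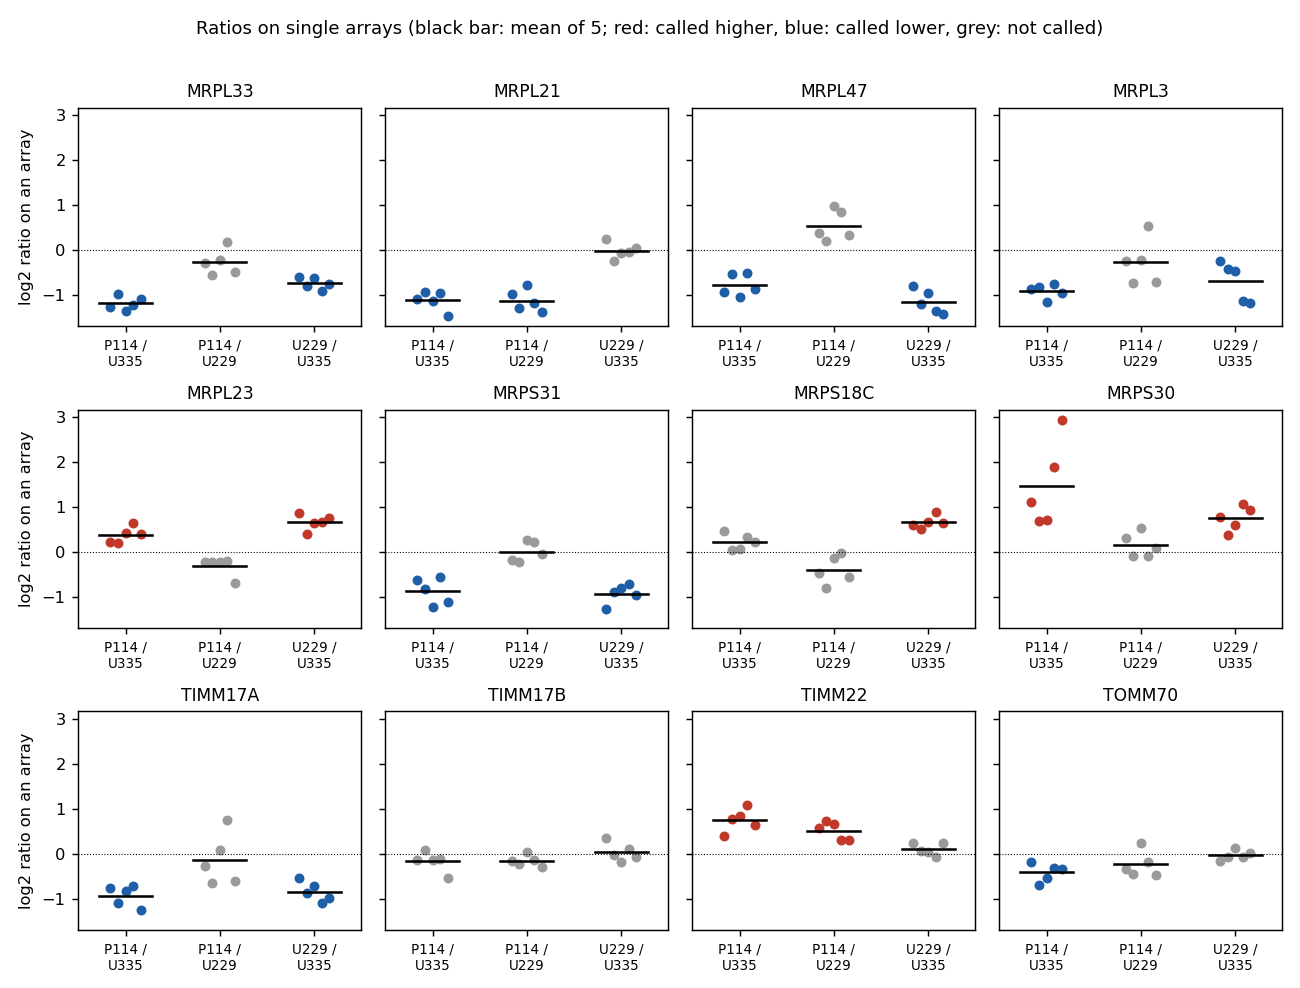
Log2 ratio on each of the 5 arrays (points, replicates 1 to 5 from left to right) and their mean (bar) for 12 of the genes in the 3 pairs, with CMT-U335 and CMT-U229 shortened to U335 and U229; red and blue mark genes called higher and lower in the first line, grey genes not called. MRPL21 is near -1.1 in both pairs that hold P114 and at -0.0078 in the third, and MRPS30 spreads from 0.68 to 2.94 in P114 over CMT-U335.

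Set side by side, the 3 pairs gave different orders of the lines for different genes. They share lines, so agreement between pairs is in part built in. MRPL21 was at -1.11 and -1.12 in P114 against the other lines and at -0.0078 ± 0.085 between those lines. TIMM22 was at 0.75 and 0.51 in P114 against the other lines. MRPL33 was at -1.18 in P114 and -0.73 in CMT-U229 against CMT-U335, and at -0.27 ± 0.12 in P114 against CMT-U229 (adjusted p = 0.27, limma). MRPS31 was at -0.87 and -0.93 against CMT-U335, with 0.0065 ± 0.099 between P114 and CMT-U229. TIMM17A was at -0.93 and -0.85 against CMT-U335, with -0.14 between P114 and CMT-U229. By these means P114 stood away from the other lines for MRPL21 and TIMM22, and CMT-U335 for MRPL33, MRPS31 and TIMM17A.

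The loop allows each direct ratio of P114 over CMT-U335 to be set against the sum of the other pairs. The difference called 0 of 5246 genes (0.0%), and 17 of all genes (0.324%) and 0 of the 63 had an unadjusted p under 0.05. The median absolute difference was 0.09 over the 63 genes and 0.084 over all genes, and 57 of the 63 lay within 0.25. MRPL21 was at -1.11 directly and -1.13 indirectly, and TIMM17A at -0.93 and -0.99. MRPS30 was at 1.46 directly and 0.90 indirectly, the highest difference (0.57 ± 0.42), and MRPL20 had the lowest (-0.64 ± 1.51). Fewer genes passed than an unadjusted threshold of 0.05 lets through by chance, so the test was conservative and its lack of calls does not show that the loop closes. The median SE of the difference was 0.20 over the 63 genes, so even misfits well above that size could go undetected. Differences were small for most of these genes and largest for MRPS30 and for those with wide arrays.

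**Figure D4:**
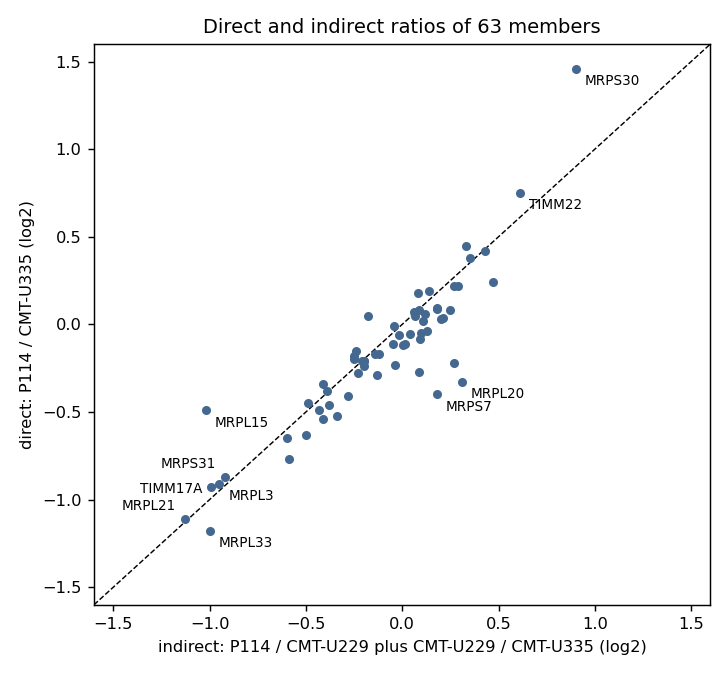
Direct log2 ratio of P114 over CMT-U335 (vertical) against the indirect one, the sum of P114 over CMT-U229 and CMT-U229 over CMT-U335 (horizontal), for the 63 genes; the dashed line marks equality. MRPL21, TIMM17A and MRPS31 sit on the line, and MRPS30 (1.46 and 0.90) lies off it.

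The genes not called mostly had small mean ratios, which follows in part from choosing genes without a call. In no pair were 35 of the 63 called, and 30 of these had an SE of at most 0.25 in all pairs. Their mean ratios lay between -0.29 and 0.19 in P114 against CMT-U335. The range was -0.33 to 0.34 in P114 against CMT-U229, and -0.23 to 0.26 in CMT-U229 against CMT-U335. Among them are MRPL58, a large subunit protein that also acts as a peptide release factor (-0.21 ± 0.091 in P114 against CMT-U335), and genes whose proteins work elsewhere than their symbols say, MRPS36, a subunit of the 2-oxoglutarate dehydrogenase complex (-0.11 ± 0.18), and TOMM34, a cytosolic co-chaperone (0.085 ± 0.086). A few genes were too uneven to place. MRPL20 spread from -3.49 to 2.35 on the arrays of P114 against CMT-U335 and from -3.40 to 3.79 in P114 against CMT-U229. MRPS7 had arrays between -2.78 and 3.59 in P114 against CMT-U229. MRPL15 lay between -2.66 and 3.15 in CMT-U229 against CMT-U335. For such genes no difference was detectable over 5 arrays. Neither this nor the small means of the 30 genes shows that the lines were alike. On simulated data, log2 changes of 0.5 were called in 49.3% to 62.7% of cases. Those data held fewer changed genes than were called here and had independent noise, so the rates are only a rough guide.

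A dye effect, a shift of Cy5 over Cy3 that stays when the lines change dyes, was called for 6 of the 63 genes (9.52%) and for 11.7% of all genes. MRPS7 had the largest, at 1.45 ± 0.31 (adjusted p = 0.01, limma), followed by MRPL14 at 0.49, TIMM9 at -0.27, MRPS35 at -0.22, MRPS31 at -0.18 and MRPS18C at -0.15. For MRPS35 in P114 against CMT-U335 the 2 arrays with P114 in Cy3, at -0.34 and -0.15, were the weakest, and the mean was -0.47 with a dye term in the fit (adjusted p = 0.0113, limma). The calls of MRPS31 and MRPS18C also held with a dye term.

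Of the 63 genes, 47 were measured by 1 probe and 16 by several, 85 probes in all. In each pair 5 of the 16 had probes of unlike sign, and 0 had probes called in opposite directions. MRPS15 had 5 probes, from -0.81 to -0.082 in P114 against CMT-U335, all below 0 and 2 of them called. MRPS18C had 2 probes at 0.59 and 0.73 in CMT-U229 against CMT-U335, both called higher. The probes of MRPL1 in that pair differed, at 0.043 and 0.75, and those of MRPL30 as well, at -0.0087 and -0.51. TIMM8B had probes at -0.27 and 0.38 in P114 against CMT-U335, MRPL22 at -0.69 and 0.25, and MRPL14 at -0.35 and 0.13. The other genes with probes of unlike sign in some pair were MRPL1, MRPS12, MRPS18B, MRPS28, MRPS31, MRPS36 and TOMM34. Averages over such probes blur what each one measured, and these probes carry no statement here of which transcript they detect.

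Some of these proteins exist as sister genes. TIMM17A and TIMM17B encode alternative subunits of TIM23, and on the same arrays their log2 ratios differed by -0.76 ± 0.24 (SD, n = 5, TIMM17A minus TIMM17B) in P114 against CMT-U335 and by -0.88 ± 0.23 in CMT-U229 against CMT-U335, below 0 on 5 of 5 arrays in both. TIMM17B was at -0.17 and 0.035 in those pairs. MRPS18C and MRPS18B both belong to the small subunit. Their ratios differed by 0.85 ± 0.34 (MRPS18C minus MRPS18B) in CMT-U229 against CMT-U335 and by 0.41 ± 0.27 in P114 against CMT-U335, above 0 on 5 of 5 arrays in both. In P114 against CMT-U229 the difference was -0.33 ± 0.36, below 0 on 4 of 5 arrays (exact permutation p = 0.188). MRPS18A, the large subunit relative, gave MRPS18C minus MRPS18A of 0.47 ± 0.34 in CMT-U229 against CMT-U335, above 0 on 5 of 5 arrays. That difference was 0.39 ± 0.37 in P114 against CMT-U335, above 0 on 4 of 5, and -0.06 ± 0.33 in P114 against CMT-U229. With 5 arrays the exact two-sided sign-flip permutation test cannot go below p = 0.0625, the value for each of the 5 differences that had 1 sign on all arrays (0.15 after Benjamini-Hochberg adjustment over 12 differences). TIMM8A minus TIMM8B in P114 against CMT-U335 was -0.44 ± 0.40, below 0 on 4 of 5 arrays (exact permutation p = 0.125). These are differences between 2 ratios and say nothing of which sister gene is the more abundant.

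Each gene was also set beside the 5 nearest measured genes on each side in the gene order of the RefSeq dog assembly UU_Cfam_GSD_1.0. This could be done for 58 of the 63 genes, which lie on 28 chromosomes. Across the 58 genes, which share arrays with their neighbours, Spearman's rho between a gene's ratio and the median of its neighbours was 0.32 in P114 against CMT-U335, 0.16 in P114 against CMT-U229 and 0.50 in CMT-U229 against CMT-U335. Over 5002 genes it was 0.22, 0.097 and 0.23. MRPL21, on chromosome 18, differed from the genes around it. Its 10 neighbours had a median of 0.051 in P114 against CMT-U335 and 0.0093 in P114 against CMT-U229, with 0 called in either. The neighbours of TIMM17A had a median of -0.0083 and -0.058 in the pairs against CMT-U335, beside its own values of -0.93 and -0.85. MRPL47 on chromosome 34 lay beside neighbours with medians of -0.19 and -0.16 in those pairs and 0.14 in P114 against CMT-U229, the same signs as its own ratios but smaller. MRPS18C and MRPL1 both lie on chromosome 32, and their neighbours had medians of 0.24 and 0.073 in CMT-U229 against CMT-U335, with 3 of 10 called higher for each and 0 lower. The part of gene position in these ratios was not tested.

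**Figure D5:**
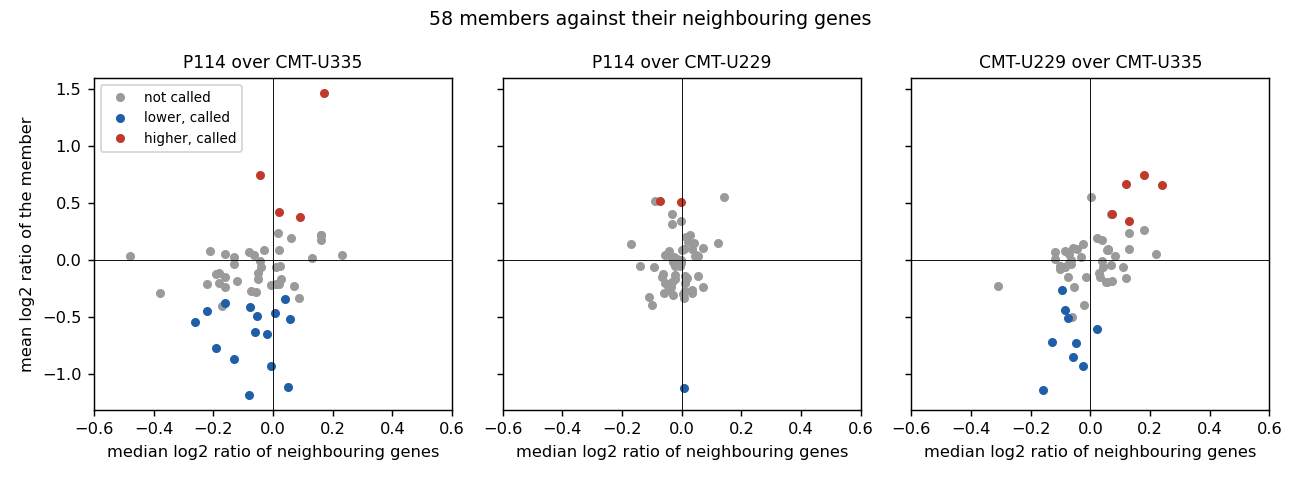
Mean log2 ratio of each of 58 genes (vertical) against the median log2 ratio of up to 10 neighbouring measured genes (horizontal) in the 3 pairs; red and blue mark genes called higher and lower in the first line, grey genes not called. Rank correlations were 0.32, 0.16 and 0.50 from left to right. In the right panel all red points lie right of 0 and all blue points but 1 left of it, in the left panel MRPL21, MRPL42, MRPS15 and MRPS35 (blue) lie right of 0 and TIMM22 (red) left of it, and in the middle panel each called gene has the opposite sign to its neighbours.

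Other genes of mitochondrial protein supply were read from lists of known factors. Of 21 listed ribosomal proteins with other symbols and assembly factors, 7 were measured. In P114 against CMT-U335 1 was higher, the small subunit protein CHCHD1 (0.57 ± 0.098), and 1 was lower, ERAL1, which binds the small subunit RNA (-0.40 ± 0.085). Of 13 measured translation factors and transfer RNA enzymes, that pair had 1 higher and 3 lower. With 7.89% of all genes called higher and 14.4% lower in it, these small counts lay not far from the whole array. TUFM, which brings transfer RNAs to the ribosome, was at 0.44 ± 0.11. GFM1, the elongation factor that moves the ribosome along, was at -1.04 ± 0.24 (adjusted p = 0.0183, limma) and at -0.64 ± 0.095 in P114 against CMT-U229 (adjusted p = 0.00852, limma). The initiation factor MTIF3 was at -0.40 ± 0.076 in P114 against CMT-U335, and the initiation factor MTIF2 was at 0.88 ± 0.11 in CMT-U229 against CMT-U335. OXA1L, which inserts new proteins into the inner membrane, was at 0.46 ± 0.091 in P114 against CMT-U229. It was the 1 call among the 7 ribosomal and assembly genes in that pair, where 7.3% of all genes were called. Those 7 gave 0 calls in CMT-U229 against CMT-U335, where 17.3% of all genes were called, with CHCHD1 at 0.34 ± 0.11 (adjusted p = 0.0811, limma). Called elongation and initiation factors thus went both ways in the pairs against CMT-U335. No pair, however, had opposing factor calls that both held under every alternative. The calls of GFM1, OXA1L and of MTIF3 in CMT-U229 against CMT-U335 (-0.36 ± 0.076) were lost with apparent swaps averaged, and that of TUFM without replicate 2, 3 or 4.

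Of 21 measured genes for the import motor, protein sorting, processing and folding, 5 were lower and 1 higher in P114 than in CMT-U335. HSPA9, the matrix chaperone that pulls precursors in, was at -0.54 ± 0.10 (adjusted p = 0.00827, limma), and AIFM1, which supports the import of small intermembrane space proteins, at -0.49 ± 0.097 (adjusted p = 0.0101, limma). DNAJC19, a partner of the import motor, was at 0.39 ± 0.11 and at 0.50 ± 0.09 in P114 against CMT-U229, the only call of this list in that pair. In CMT-U229 against CMT-U335 5 of the 21 were again lower and 1 higher, with AIFM1 at -0.52 ± 0.11, HSPA9 at -0.50 ± 0.13 and the inner membrane organiser CHCHD3 at -0.49 ± 0.08. The list's medians were -0.18 and -0.10 in the pairs against CMT-U335 and -0.019 in P114 against CMT-U229. CHCHD6, a protein of the inner membrane folds, was at -0.41 ± 0.097 in P114 against CMT-U335. The lower calls all stood in the pairs against CMT-U335, which share that line's RNA. Of all genes, 14.4% were called lower in P114 and 8.58% in CMT-U229 against CMT-U335, but only 3.98% in P114 against CMT-U229. The 0 lower calls among 21 genes in that last pair thus lay near the share of the whole array. In P114 against CMT-U335 the calls of AIFM1 and HSPA9 held under every alternative, whereas the other calls named here were lost with apparent swaps averaged.

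Of 9 measured genes that copy or express the mitochondrial genome, 5 were lower and 0 higher in P114 than in CMT-U335, with a median of -0.31. The whole array had 14.4% of genes called lower and 7.89% higher there, and a median of -0.023. HSD17B10, a subunit of the enzyme that trims transfer RNA ends, was at -0.56 ± 0.096, POLG, the mitochondrial DNA polymerase, at -0.35 ± 0.08 and TEFM, an elongation factor of mitochondrial transcription, at -0.33 ± 0.092. In CMT-U229 against CMT-U335 2 were lower, ELAC2 and TFB2M, both at -0.39, and SSBP1, which coats single-stranded mitochondrial DNA, was higher at 0.38 ± 0.082. Shares over all genes in that pair were 8.58% lower and 8.77% higher. Of the 9, 0 were called in P114 against CMT-U229, where 7.3% of all genes were. Among 3 outer membrane channels, VDAC2 was higher in P114 than in CMT-U335 (0.52 ± 0.10) and VDAC3 higher in CMT-U229 than in CMT-U335 (0.53 ± 0.12). The 6 measured transcriptional regulators of mitochondrial genes, such as GABPA and YY1, gave 0 calls in any pair. Of all genes, 22.3% were called in P114 against CMT-U335, 7.3% in P114 against CMT-U229 and 17.3% in CMT-U229 against CMT-U335. For only 6 genes, 0 calls lay near those shares and do not show that the regulators were alike. Ratios of the 6 regulators lay between -0.34 and 0.33, with TFE3 at -0.34 ± 0.11 in P114 against CMT-U335. With apparent swaps averaged, the calls of POLG, TEFM, ELAC2, TFB2M, SSBP1 and VDAC3 were lost. Of the 33 calls in these lists, 10 held without any one array and 10 with apparent swaps averaged. Held under every alternative were 8, those of CHCHD1, ERAL1, MTIF3, AIFM1, HSPA9, HSD17B10 and VDAC2 in P114 against CMT-U335 and of MTIF2 in CMT-U229 against CMT-U335.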

How the data were processed

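RNA from 3 canine mammary tumour lines was amplified, labelled with Cy3 or Cy5 and hybridised in pairs to 15 cDNA arrays, per the labels' protocols. The authors deposited 1 log ratio per probe and array, read here as log2 from its range (largest absolute value 12.43). The normalization method is not given in the sources used here, and array medians of -0.00671 to 0.0134 show values that appear centred. No intensities were used, so depth and background are unknown, and precision is limited by how many arrays there are. The table of 22176 probes has 2 missing values and 0 columns of no sample. Of the probes, 7694 had 1 symbol, 0 several and 14482 none in the platform annotation, and 7340 symbols were updated through the RefSeq gene table while 354 kept the platform's symbol.

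Each array was turned to the first line of its pair by the dyes in the labels, and probes were averaged per gene. A gene needed values on 3 of 5 arrays. Separate fits per pair used limma 3.58.1 in R 4.3.3 (lmFit and eBayes, two-sided). P-values were adjusted over 5246 genes by Benjamini-Hochberg, and the threshold was 0.05. On simulated data, log2 changes of 0.5 and 1 were recovered in 62.7% and 94% of cases for P114 against CMT-U335 (5245 genes), 49.3% and 89.6% for P114 against CMT-U229 (5246 genes), and 62.7% and 94% for CMT-U229 against CMT-U335 (5246 genes). False calls were 8 of 178, 14 of 173 and 4 of 174 in that order of pairs, so the share in P114 against CMT-U229 was above the threshold. Each simulated pair had 67 genes changed by 0.5, 67 by 1 and 66 by 2, with independent normal noise and no dye effect. Real pairs had 383 to 1169 genes called, and adjustment is stricter where fewer genes change, so these rates may not hold for them. Named genes were, per pair, up to 8 called genes in each direction by absolute ratio, the 4 largest ratios where fewer than 4 were called, genes whose probes differ in sign or whose dye effect or loop difference was called, and up to 3 called genes (or 1 value where none was called) of each pathway list. Genes named outside this rule, such as MRPL58, were chosen after their values were seen. The members and lists were chosen with earlier results of these data known. Alternatives changed centring, scaling, the filter, a dye term, the samples fitted, the replicate block, averaging of apparent swaps, probe averaging and symbols, and left out each array.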

Additional observations from a re-analysis of the deposited data

Results flagged for a closer look

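Among 120 sets of 5 arrays, 8 had 1 array far from the other 4 by Dixon's test (critical value 0.71), where chance gives about 1 in 20. In P114 against CMT-U229, MRPL15 was at -4.29 in replicate 3, with the others between -0.61 and 0.72. In the same pair MRPL1 was at 0.11 in replicate 3, with the others between -0.45 and -0.34, and MRPL23 was at -0.70 in replicate 5, with the others between -0.23 and -0.20. None of these 3 genes was called in that pair.

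In P114 against CMT-U335, replicate 4 was the weak array for MRPL46 (-0.085, others between -0.89 and -0.69) and MRPS15 (-0.18, others between -0.60 and -0.50), both called lower with or without it. MRPL14 was at -1.19 in replicate 1, with the others between -0.044 and 0.41. In CMT-U229 against CMT-U335, replicate 2 was apart for MRPS15 (-0.40, others between -0.15 and -0.082) and TIMM9 (-0.15, others between 0.10 and 0.15).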

How the results depend on the processing

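Of 40 called ratios of the 63 genes, 24 kept their call without any one array, 24 under the other alternatives, 21 under both, and 0 reversed. Averaging apparent dye swaps, which leaves fewer arrays, ended 13 calls, and the loop fit ended 0. The genes called higher in P114 against CMT-U335 (5) were 8 in the loop fit, 3 with swaps averaged and 2 to 5 leaving out an array (2 without replicate 3 or 4). Those called lower (16) were 12 to 16. All genes called (1169) were 1757 in the loop fit and 835 to 1031 leaving out an array, and the median ratio of the 63 genes ran from -0.184 to -0.0577. In P114 against CMT-U229 the higher calls (2) were 6 in one fit over 15 arrays, 6 in the loop fit, 0 with swaps averaged and 0 to 2 leaving out an array. The lower call (1) became 4, 8 and, leaving out an array, 1, and all calls (383) became 650, 1056, 79 with swaps averaged and 202 to 408. In CMT-U229 against CMT-U335 the higher calls (6) were 3 with swaps averaged and 4 to 5 leaving out an array. The lower calls (10) were 16 in the loop fit, 4 with swaps averaged and 7 to 11, and all calls (910) were 1445, 410 and 571 to 863. The causes were not tested. Same-numbered arrays of different pairs deviated together at correlations of -0.249 to 0.331, and 0 of 15 arrays correlated best with their own number in both other pairs. This check cannot decide whether the numbers pair the samples. It looked for the highest correlation, whereas a shared sample of CMT-U229 would lower the correlation between the pairs that hold that line, which is second in one and first in the other. With a replicate block P114 against CMT-U335 had 4 higher and 14 lower calls, P114 against CMT-U229 had 4 and 2, and CMT-U229 against CMT-U335 had 6 and 10. The block ended the calls of MRPL16, MRPL42 and TIMM8A in P114 against CMT-U335 (adjusted p = 0.0516, 0.111 and 0.0873, limma) and of MRPL30 in CMT-U229 against CMT-U335 (0.0904). Without intensities, dim probes could not be told from bright ones.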
